A study of Mus musculus with 10 samples.

Results

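Cytosolic nucleic acid sensors were examined as 10 listed genes, 10 of the 24538 genes in the count files and of the 11571 genes tested. They were the RNA sensors Ddx58 (RIG-I), Ifih1 (MDA5) and Dhx58 (LGP2) with their adaptor Mavs, the Z-form nucleic acid sensor Zbp1, the DNA sensors Aim2, Ifi203, Ifi204 and Ifi205, and the DNA sensing adaptor Tmem173 (STING). The genes were listed as known RNA and DNA sensors and adaptors, with earlier results of these data known. All 10 were measured and all 10 passed the filter on low values.

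The RNA came from macrophages of wild-type C57BL6/J female mice of 8 to 10 weeks. Metastasis-associated macrophages (MAMs, 5 libraries) were sorted as CD11B+CD11C- cells from lung metastases that grew from E0771-LG mouse breast cancer cells, given by tail vein at 6 to 8 weeks of age. Resident alveolar macrophages (RAMs, 5 libraries) were sorted as CD11B-CD11C+ cells from normal lungs. Both gates took CD45+, F4/80+, LY6C- and MRC1+ cells of high forward scatter, and both digestions held transcription inhibitors. A MAM sample was a pool of metastases from 2 to 4 mice by its label, and the study's methods describe the other samples as single mice. The p-values measure the spread between these samples. Tissue and sorted subset differ together between the groups and cannot be told apart, and 1 tumour line was used.

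Cytosolic sensors report viral or misplaced self nucleic acid. RIG-I and MDA5 bind RNA and act through the mitochondrial adaptor MAVS, which recruits the kinases TBK1 and IKKε and leads to the phosphorylation of IRF3 and IRF7 and to type I interferon. DNA is read by cGAS, which makes a cyclic dinucleotide for STING, and by PYHIN proteins, of which AIM2 assembles an inflammasome. ZBP1 binds nucleic acid in the Z conformation and recruits RIPK3 in necroptosis. Many of these genes are themselves induced by interferon, and alveolar macrophages meet inhaled viruses before other immune cells do.

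Levels are given as CPM, a gene's share of the counts of its library, scaled between libraries by TMM factors. A gene was called differentially expressed (DE) where the quasi-likelihood test of edgeR gave an adjusted p under 0.05 and the groups differed by over 2-fold. A gene that met the limit on adjusted p, whatever its fold change, passed the test. Counts on genes ran from 55391447 to 87523247 in MAM libraries and from 50746305 to 72150650 in RAM libraries. Lines of the count files that named no gene held 54.6% to 58.3% of the total in MAMs and 62.2% to 64.1% in RAMs. The gates showed in Itgam, which encodes CD11B (6270 CPM in MAMs, 64.3 in RAMs), and in Itgax, which encodes CD11C (171 and 991). The 8 alveolar macrophage markers summed to 254 to 549 CPM in MAMs, against 8862 to 11644 in RAMs, and the 6 markers of monocyte-derived macrophages to 3177 to 3533 and 254 to 359. Most of the alveolar sum in RAMs was Chil3 (9151 CPM, against 105 in MAMs). Of those 8 markers 7 were DE and lower in MAMs, and Marco differed least, at 232 CPM in MAMs and 368 in RAMs.

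Of the 10 sensor genes, 7 were DE and higher in MAMs, 1 was DE and lower, and 2 were not DE. Over all 11571 genes tested, 30.2% were DE, 15.2% higher and 15.0% lower. Zbp1, Dhx58, Ifih1, Ddx58 and the PYHIN genes Ifi203, Ifi204 and Ifi205 made up the higher group, and Mavs was the lower gene. Tmem173 passed the test with a difference under 2-fold, and Aim2 did not pass it. By the test alone 8 of the 10 were higher and 1 was lower, against 56.3% of all genes tested that passed, 28.9% higher and 27.4% lower. The 5 MAM libraries did not overlap the 5 RAM libraries for 9 of the 10 genes, against 44.9% of all genes tested (8 of the 10 higher against 23.7%, and 1 lower against 21.2%). The median log2 fold change was 2.83 over the 10 genes and -0.02 over all genes tested. In bulk samples, fewer cells that express a gene and less RNA per cell cannot be told apart.

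**Figure D1:**
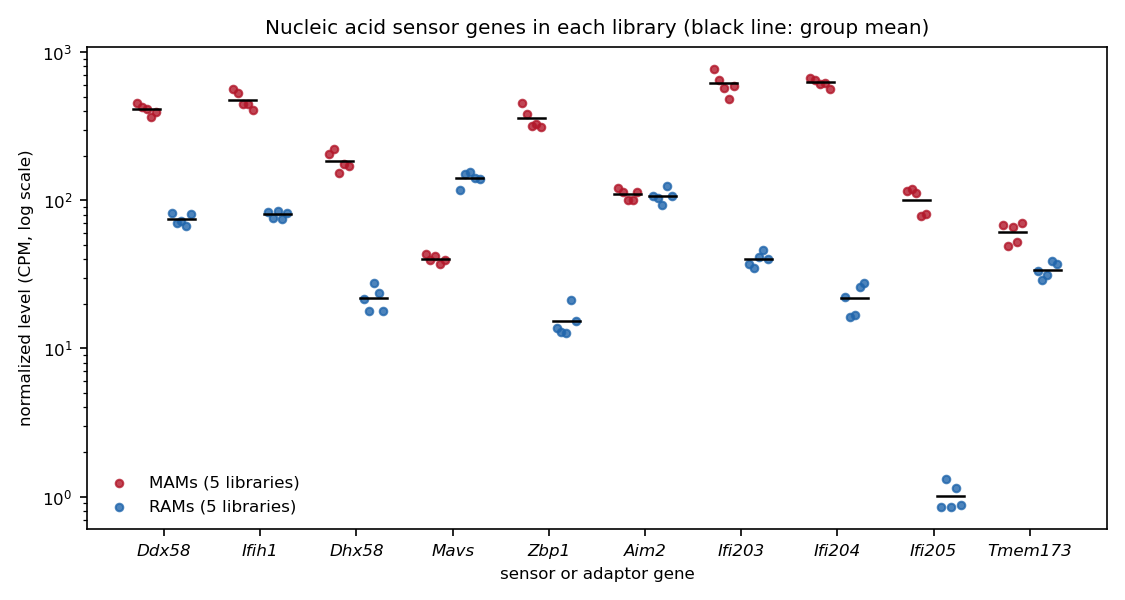
Level of each sensor or adaptor gene (x axis) in each library, in CPM on a log axis, with 5 MAM libraries in red, 5 RAM libraries in blue and a black line at each group mean. MAM points lie above RAM points for 8 genes, below them for Mavs, and among them for Aim2.

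The starts of 6 of the 10 genes are shown first and read for 1 sequence element. Of these, Mavs was DE and lower in MAMs, Aim2 was not DE, and the others were DE and higher. The element is the interferon-stimulated response element (ISRE), which interferon-activated transcription factors bind, searched on both strands as 2 copies of GAAA with 2 bases of any kind between them. RefSeq promoters of GRCm38.p6, each of 250 bases before and 50 bases after a start, were matched for 6 of the 10 genes, with 2 starts for Ifi203. Dhx58, Zbp1, Ifi204 and Tmem173 had no match. Capitals mark the ISRE letters, and each sequence runs 5′ to 3′ on the strand of its gene. The windows are Ddx58 at chr4:40239776-40240075 (minus strand), Ifih1 at chr2:62646206-62646505 (minus), Ifi203 at its second start at chr1:173942443-173942742 (minus), Ifi205 at chr1:174031706-174032005 (minus), Mavs at chr2:131233813-131234112 (plus) and Aim2 at chr1:173420354-173420653 (plus).
Ddx58: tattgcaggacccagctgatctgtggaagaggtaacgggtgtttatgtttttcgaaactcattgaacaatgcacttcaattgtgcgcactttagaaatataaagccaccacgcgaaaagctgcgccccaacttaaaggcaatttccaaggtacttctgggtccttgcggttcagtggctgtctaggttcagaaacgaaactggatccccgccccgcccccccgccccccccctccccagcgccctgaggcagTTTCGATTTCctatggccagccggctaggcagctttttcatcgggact
Ifih1: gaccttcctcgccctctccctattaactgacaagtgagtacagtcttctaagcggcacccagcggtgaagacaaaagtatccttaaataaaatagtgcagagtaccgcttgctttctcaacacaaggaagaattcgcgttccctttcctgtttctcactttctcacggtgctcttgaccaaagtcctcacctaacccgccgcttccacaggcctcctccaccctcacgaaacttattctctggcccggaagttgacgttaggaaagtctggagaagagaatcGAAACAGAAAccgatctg
Ifi203, second start: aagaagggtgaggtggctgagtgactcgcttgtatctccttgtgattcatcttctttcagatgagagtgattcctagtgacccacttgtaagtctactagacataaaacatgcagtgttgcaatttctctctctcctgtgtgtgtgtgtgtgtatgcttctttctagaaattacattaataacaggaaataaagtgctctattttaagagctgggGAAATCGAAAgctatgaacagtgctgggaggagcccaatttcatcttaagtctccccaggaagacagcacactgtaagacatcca
Ifi205: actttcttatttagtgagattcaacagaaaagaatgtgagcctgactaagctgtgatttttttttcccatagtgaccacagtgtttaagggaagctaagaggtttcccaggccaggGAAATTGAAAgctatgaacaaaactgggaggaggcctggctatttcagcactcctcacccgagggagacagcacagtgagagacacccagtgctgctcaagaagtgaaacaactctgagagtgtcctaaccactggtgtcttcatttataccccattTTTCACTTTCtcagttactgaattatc
Mavs: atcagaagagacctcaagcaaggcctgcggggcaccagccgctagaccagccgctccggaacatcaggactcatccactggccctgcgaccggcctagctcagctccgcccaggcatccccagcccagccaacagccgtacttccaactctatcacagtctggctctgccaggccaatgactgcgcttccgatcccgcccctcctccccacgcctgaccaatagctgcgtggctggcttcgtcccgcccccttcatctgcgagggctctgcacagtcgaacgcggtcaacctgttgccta
Aim2: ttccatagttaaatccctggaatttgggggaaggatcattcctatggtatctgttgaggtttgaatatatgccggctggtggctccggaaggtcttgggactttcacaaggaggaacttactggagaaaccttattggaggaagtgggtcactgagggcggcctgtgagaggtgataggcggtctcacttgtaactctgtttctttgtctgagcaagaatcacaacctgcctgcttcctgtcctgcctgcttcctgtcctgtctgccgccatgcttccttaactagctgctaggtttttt

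The ISRE letters were found at a start of 4 of the 6 matched genes, Ddx58, Ifih1, Ifi203 and Ifi205, which were all higher in MAMs. They were not in the windows of Mavs and Aim2. Of 32851 RefSeq promoters of the same length outside chromosome 18, 3.44% held them. In Ddx58 the match TTTCGATTTC lies on the opposite strand, at bases 3 to 12 counted with the start itself as base 1. In Ifih1 the match GAAACAGAAA lies at bases 33 to 42, so both RNA sensors hold the letters just after the start. Ifi205 has 2 matches, GAAATTGAAA at -134 to -125 and TTTCACTTTC at 24 to 33, the latter on the opposite strand. Ifi203 has GAAATCGAAA at -35 to -26 of its second start and none at its first. From the first base of the match on, 31 of 40 bases are the same in Ifi203 and Ifi205. The second start of Ifi203 lies 180 bases from the first and 1 base from the 5′ end that GENCODE gives for the neighbouring PYHIN gene Mndal. Another interferon element, GAS, written TTCNNNGAA, was in none of the 7 windows and in 8.3% of the same 32851 promoters. The window of Cgas, encoding cGAS, held no ISRE either, and that gene was DE and higher in MAMs (log2 fold change 1.11, edgeR adjusted p = 1.4e-05). A match is a description of letters and was not tested as a binding site.

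Among the RNA sensors, Ddx58 encodes RIG-I, which binds RNA with a free triphosphate end (gene at chr4:40203773-40239828, minus strand, 18 exons in its longest GENCODE transcript). Its level was 452, 425, 413, 364 and 396 CPM in MAM replicates 1 to 5 and 82.1, 70.7, 72.7, 67.2 and 80.7 CPM in RAM replicates 1 to 5. Each MAM library was several times above each RAM library. The means were 410 ± 33.1 and 74.7 ± 6.46 CPM (SD, n = 5 each), a 5.49-fold difference. The log2 fold change was 2.46 (standard error 0.0842, 95% interval 2.28 to 2.64, edgeR adjusted p = 6.0e-13 over all genes tested).

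Ifih1 encodes MDA5, which binds long double-stranded RNA (chr2:62595798-62646255, minus strand). It had 563, 526, 449, 448 and 405 CPM in the MAM libraries and 83.8, 75.7, 84.2, 75.0 and 82.3 CPM in the RAM libraries. The RAM values lay within a narrow band, and MAM replicate 1 was the highest. On the log2 scale the difference was 2.58 (standard error 0.0936, 95% interval 2.38 to 2.78, edgeR adjusted p = 1.2e-12), or 5.96-fold. The interval overlaps that of Ddx58, and the ratio of Ifih1 to Ddx58 within a library was 1.16 in MAMs and 1.08 in RAMs. That ratio did not pass (log2 difference 0.11, exact two-sided permutation test, adjusted p = 0.143 over 7 gene pairs), and without MAM replicate 5 it did (0.16, adjusted p = 0.0476 in the same permutation test). The gene whose pattern over the 10 libraries was nearest to Ifih1 among 11570 genes was Ddx58, at a distance of 0.354 between centred log2 CPM values.

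Dhx58 encodes LGP2, a relative that binds RNA but lacks the signalling domains of the other two (chr11:100694884-100704271, minus strand). Its levels were 205, 221, 152, 176 and 172 CPM in MAMs and 21.6, 18.0, 27.6, 23.8 and 17.8 CPM in RAMs. No RAM library came near a MAM library. This was a log2 fold change of 3.09 (standard error 0.142, 95% interval 2.79 to 3.40, edgeR adjusted p = 2.3e-11), or 8.53-fold. Within a library, Dhx58 had 0.449 reads per read of Ddx58 in MAMs and 0.288 in RAMs, a log2 difference of 0.64 (exact two-sided permutation p = 0.0159, adjusted p = 0.0185). The ratios ran from 0.369 to 0.521 in MAMs and from 0.220 to 0.380 in RAMs and overlapped. With the deposited FPKM in place of counts the log2 difference was 0.83 and the groups did not overlap. Exons of Dhx58 overlap the antisense gene Dhx58os, and since no strand setting of the counting is stated, reads of the pair cannot be told apart.

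Mavs, the shared adaptor downstream of RIG-I and MDA5, went the other way (chr2:131234063-131248025, plus strand). It had 43.6, 39.3, 41.8, 37.0 and 39.4 CPM in MAMs and 118, 150, 155, 140 and 139 CPM in RAMs. The highest MAM library lay well under the lowest RAM library, RAM replicate 1. Its log2 fold change was -1.80 (standard error 0.0959, 95% interval -2.01 to -1.60, edgeR adjusted p = 1.4e-10), so that RAMs were 3.49-fold higher. Mavs had the smallest spread of the 10 genes among MAMs, a coefficient of variation of 6.34%.

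The opposite directions meet in the ratio of sensor to adaptor, which needs no scaling between libraries. Ddx58 had 10.2 reads for each read of Mavs in MAMs and 0.533 in RAMs. The ratio ran from 9.82 to 10.8 over the MAM libraries and from 0.470 to 0.697 over the RAM libraries. The log2 difference was 4.25 (exact two-sided permutation test, p = 0.00794, adjusted p = 0.0111), and the p is the smallest that 5 against 5 libraries allow. Ifih1 to Mavs gave 11.8 and 0.573, a log2 difference of 4.37 with the same permutation p and adjusted p. These ratios compare read counts of genes of different length, so only their difference between the groups is read.

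**Figure D2:**
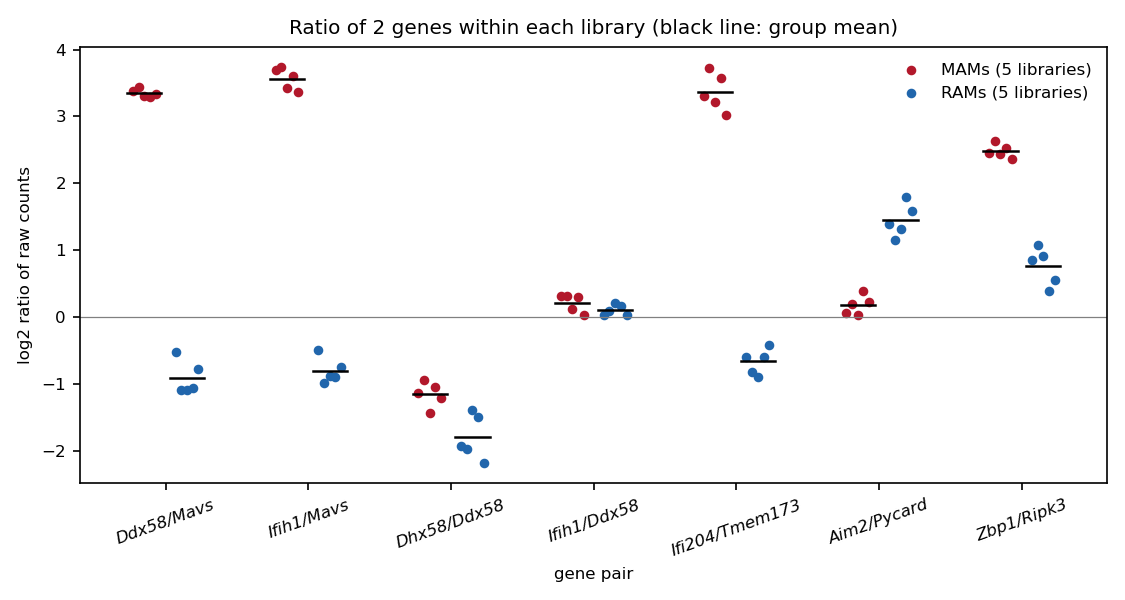
Log2 ratio of the raw counts of 2 genes within each library (y axis) for 7 gene pairs (x axis), with MAM libraries in red, RAM libraries in blue and black lines at the group means. Ddx58/Mavs, Ifih1/Mavs and Ifi204/Tmem173 differ by over 4 log2 units, Aim2/Pycard is lower in MAMs, and the groups overlap for Dhx58/Ddx58 and Ifih1/Ddx58.

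Of 33 further genes that regulate or transmit RNA sensing, 32 were tested. There were 7 DE and higher and 2 DE and lower in MAMs, 28.1% in all, against 30.2% of all genes tested (15.2% higher and 15.0% lower). By the test alone 16 were higher, 6 were lower and 10 did not pass, where 28.9% of all genes tested were higher and 27.4% lower. The median log2 fold change was 0.45, against -0.02 over all genes. Selected members are given by role, and the DE and higher genes Eif2ak2, Tank, Zc3hav1 and Azi2 are not described further.

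The ubiquitin ligases that activate RIG-I were higher by less than 2-fold. Trim25 had 1496 CPM in MAMs and 918 in RAMs (log2 fold change 0.70, edgeR adjusted p = 1.4e-07), and Rnf135 had 28.4 and 14.5 (0.97, edgeR adjusted p = 3.4e-04). Of the kinases that act after MAVS, Tbk1 was at 173 and 101 CPM (0.77, edgeR adjusted p = 8.6e-07). Ikbke, which encodes IKKε, was at 153 and 7.99 CPM (4.26, edgeR adjusted p = 1.9e-06). Its RAM libraries ran from 3.35 to 16.3 CPM, the highest in replicate 5, and without that library the log2 fold change was 4.70.

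Of the transcription factors downstream of these kinases, Irf7 and Irf5 were higher in MAMs and Irf3 did not pass the test. Irf7 had 664, 624, 564, 625 and 645 CPM in the MAM libraries and 11.7, 12.0, 10.0, 9.39 and 12.5 CPM in the RAM libraries. Both groups were tight and far apart, at a log2 fold change of 5.81 (standard error 0.103, edgeR adjusted p = 2.7e-16). Irf5 was at 184 and 33.4 CPM (2.46, edgeR adjusted p = 2.8e-12), and it was the gene nearest to Ddx58 in pattern over the 10 libraries, at a distance of 0.313. Irf3, which is present before infection in most cells, was at 61.1 and 70.5 CPM and did not pass (-0.21, edgeR adjusted p = 0.172). Irf3 did pass under upper-quartile scaling, at -0.37, a scaling that moved the median of all genes by -0.16.

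The 2 partners that were DE and lower encode reported inhibitors of the route. Some other listed partners with reported inhibitory roles were not DE and went both ways, and inhibitors were not tested as a set. Atg12 (log2 fold change 0.73) and Sike1 (0.40) were higher, and Cyld (-0.30) and Pcbp2 (-0.33) were lower. Nlrx1, which encodes a mitochondrial protein reported to restrain MAVS, had 27.4 CPM in MAMs and 85.0 in RAMs (-1.63, edgeR adjusted p = 3.0e-08). Tkfc, whose product has been reported to hold MDA5 in check, had 8.72 and 97.3 CPM (-3.48, edgeR adjusted p = 1.5e-05). The deposited FPKM of Tkfc were only 2.83 and 5.29, and limma on log2(FPKM + 1) gave -0.88, so its size depends on which of the authors' tables is used.

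The type I and III interferon genes, the output of sensing, had few reads or none. Of 20 listed, 15 had no count in any library, which allows up to 3 counts in each. Ifnb1 had 16 counts in MAM replicate 3, 8 in MAM replicate 5 and 0 in the other 8 libraries. Ifnab had 17, 3 and 67 counts in RAM replicates 1, 2 and 5 and none in MAMs, and Ifna13 had 6 in RAM replicate 1 alone. Ifnz had 1 count in MAM replicate 1 and 1 to 6 in each RAM library. Only Ifnk, a keratinocyte interferon gene, passed the filter, with 2.21 CPM in MAMs and 6.88 in RAMs (log2 fold change -1.64, edgeR adjusted p = 0.00887, and -2.48 with limma on log2(FPKM + 0.1)) and overlapping groups. Interferon transcripts at the moment of sorting were thus not detected in the counts for most of these genes. Many of the 20 are Ifna genes of similar sequence, and the authors counted uniquely mapped reads. Reads shared between such genes can be lost at any depth, so these zeros do not show that Ifna transcripts were absent.

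Zbp1 encodes the sensor of Z-form nucleic acid (chr2:173206612-173218923, minus strand). It had 455, 383, 315, 326 and 312 CPM in MAMs and 13.8, 12.9, 12.7, 21.2 and 15.4 CPM in RAMs. MAM replicate 1 and RAM replicate 4 were the highest of their groups, and the groups were far apart. The means were 359 ± 61.2 and 15.2 ± 3.49 CPM (SD, n = 5 each), a 23.6-fold difference. On the log2 scale this was 4.56 (standard error 0.166, 95% interval 4.20 to 4.92, edgeR adjusted p = 1.1e-11). Ranked by log2 fold change from the highest, it was rank 501 of 11571 genes.

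The kinase that ZBP1 recruits and the executioner of necroptosis were higher too. Ripk3 had 64.0 CPM in MAMs and 9.44 in RAMs (log2 fold change 2.76, edgeR adjusted p = 1.7e-07). Mlkl, which encodes the protein that breaches the plasma membrane, had 76.9 and 8.73 CPM (3.14, edgeR adjusted p = 8.2e-10). Zbp1 differed more than Ripk3, since the ratio of their reads was 5.60 in MAMs and 1.69 in RAMs (log2 difference 1.73, exact two-sided permutation p = 0.00794, adjusted p = 0.0111).

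Aim2, whose product forms an inflammasome on double-stranded DNA, is the 1 listed gene for which the groups mixed (chr1:173350879-173466040, plus strand). It had 120, 115, 100.3, 101 and 114 CPM in MAMs and 107, 103, 93.5, 124 and 107 CPM in RAMs. The highest value was a RAM library, replicate 4, and so was the lowest, replicate 3. The log2 fold change was 0.04 (standard error 0.0921, 95% interval -0.15 to 0.24, edgeR adjusted p = 0.72), an interval that leaves out a change of 2-fold in either direction. Its sign turned under upper-quartile scaling (-0.12), with limma on FPKM (-0.10) and without RAM replicate 3 (-0.01), and none of these passed.

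The partners of AIM2 did differ. Pycard encodes the adaptor ASC, with 97.8 CPM in MAMs and 39.2 in RAMs (log2 fold change 1.32, edgeR adjusted p = 8.7e-08). Casp1, the protease of the inflammasome, had 211 and 111 CPM (0.93, edgeR adjusted p = 2.0e-06). Aim2 had 1.13 reads per read of Pycard in MAMs and 2.73 in RAMs (log2 difference -1.27, exact two-sided permutation p = 0.00794, adjusted p = 0.0111). The 2 cytokines that caspase-1 matures went in opposite directions. Il1b was at 263 and 31.1 CPM (3.08, edgeR adjusted p = 8.9e-08), and Il18 was at 35.2 and 128 CPM (-1.86, edgeR adjusted p = 2.9e-07).

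Over the 14 listed genes of inflammasome and necroptosis, 6 were DE and higher and 1, Il18, was DE and lower, 50% in all against 30.2% of all genes tested. The median log2 fold change was 0.78. Ripk1 and Fadd stand on this list and on that of the RNA sensing partners, so the lists are not separate.

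Ifi204 encodes p204, a PYHIN protein that binds DNA and has been placed upstream of STING (chr1:173747293-173766943, minus strand). It had 674, 651, 610, 622 and 566 CPM in MAMs and 22.2, 16.4, 16.8, 25.8 and 27.8 CPM in RAMs. The MAM libraries lay close together, and RAMs had the widest relative spread of the 10 genes, a coefficient of variation of 23.6%. The log2 fold change was 4.84 (standard error 0.154, 95% interval 4.51 to 5.17, edgeR adjusted p = 1.7e-12), or 28.6-fold.

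Ifi203, a second PYHIN gene, had 770, 652, 570, 486 and 594 CPM in MAMs and 37.0, 35.1, 41.5, 46.2 and 40.4 CPM in RAMs (chr1:173920407-173942672, minus strand). MAM replicate 1 was the highest and replicate 4 the lowest of the MAMs, and the latter was still above every RAM library. Its log2 fold change was 3.94 (standard error 0.123, 95% interval 3.68 to 4.20, edgeR adjusted p = 2.4e-13), or 15.3-fold. Exons of Ifi203 overlap exons of Mndal on the same strand.

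Ifi205 had the largest difference of the 10 genes (chr1:174011998-174031810, minus strand). It had 115, 119, 111, 77.8 and 80.3 CPM in MAMs and 0.856, 1.31, 0.849, 1.15 and 0.874 CPM in RAMs, the latter from 50, 87, 41, 55 and 41 reads. MAM replicates 4 and 5 lay below the other three, and the RAM libraries were all near 1 CPM. Its log2 fold change was 6.63 (standard error 0.201, 95% interval 6.21 to 7.06, edgeR adjusted p = 1.3e-13), or 100.1-fold, and with limma on log2(FPKM + 1) it was 5.27. The RAM level was 0.999% of the MAM level. Among the 115 tested genes over 1000 CPM in MAMs the lowest such share was 0.912%, for the complement gene C1qb, so the RAM level of Ifi205 lay near the lowest share seen. Whether its RAM reads came from RAMs was not tested.

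The PYHIN genes looked up by name stand in 1 cluster at chr1:173350879-174031810, with 13 of the names found in GENCODE M21. Other annotated genes of the region were not sought. Of these 12 were in the count files and 11 were tested, and 10 of the 11 were DE and higher in MAMs, against 15.2% of all genes tested. Aim2, at one end of the cluster, was the exception, and Ifi205, at the other end, had the largest log2 fold change. The smallest difference of the 10 was that of Ifi207, 4.59-fold, with 831 and 181 CPM. The median over the 11 genes was 5.85.

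Among the 7 tested relatives that are not listed sensors, Ifi209 had 593 CPM in MAMs and 6.93 in RAMs (log2 fold change 6.42, edgeR adjusted p = 4.4e-11). Ifi213 had 195 and 2.47 CPM (6.31, edgeR adjusted p = 2.1e-12), and Ifi214 had 22.5 and 0.297 CPM (6.26, edgeR adjusted p = 3.0e-08). With limma on log2(FPKM + 1) the log2 fold changes were 5.71 for Ifi209, 5.18 for Ifi213 and 3.19 for Ifi214, and without RAM replicate 3 that of Ifi214 was 6.88. Their RAM levels were 1.17% to 1.32% of the MAM levels, near the 0.999% of Ifi205 and the lowest share given above. PYHIN genes are similar in sequence and the authors counted uniquely mapped reads, so reads of near-identical parts can be lost or be split between neighbours.

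**Figure D3:**
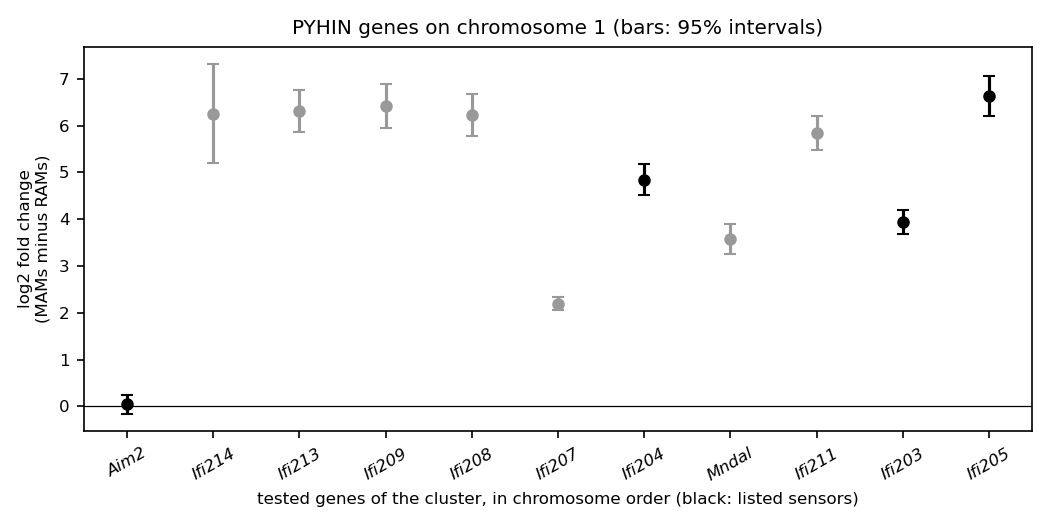
Log2 fold change of MAMs against RAMs (y axis) with its 95% interval for the 11 tested genes of the PYHIN cluster among those looked up. The x axis follows their order on chromosome 1, with listed sensors in black and relatives in grey. Aim2 sits at 0.04 and the other 10 genes, up to 6.63 for Ifi205, all have intervals above it.

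Tmem173 encodes STING, the adaptor on the endoplasmic reticulum that cGAS signals to (chromosome 18). It had 68.5, 49.5, 65.9, 52.3 and 70.0 CPM in MAMs and 33.4, 29.1, 31.3, 38.9 and 36.9 CPM in RAMs. The lowest MAM library, replicate 2, stood above the highest RAM library, replicate 4. The log2 fold change was 0.85 (standard error 0.132, 95% interval 0.57 to 1.13, edgeR adjusted p = 4.2e-05), or 1.80-fold. Against a null of 2-fold, edgeR's glmTreat did not call it. Thus the 2 adaptors parted, with STING higher in MAMs and MAVS lower. Ifi204 had 10.3 reads per read of Tmem173 in MAMs and 0.632 in RAMs (log2 difference 4.03, exact two-sided permutation p = 0.00794, adjusted p = 0.0111).

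Of the 28 cGAS, STING and DNA binding partners, 3 were DE and higher and 5 DE and lower, 28.6% against 30.2% of all genes. By the test alone 7 were higher, 15 were lower and 6 did not pass, where 28.9% of all genes tested were higher and 27.4% lower. The median log2 fold change was -0.48, against -0.02 over all genes. Mb21d1, the files' name for the cGAS gene, had 64.2, 56.5, 54.2, 54.5 and 47.7 CPM in MAMs and 26.6, 25.6, 19.7, 21.6 and 35.2 CPM in RAMs. Its groups did not overlap, and the log2 fold change was 1.11 (edgeR adjusted p = 1.4e-05). Under upper-quartile scaling it was 0.94 and so under 2-fold.

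The named partners with the largest differences lay after cGAS or among DNA binding proteins. Abcc1, which encodes an exporter of the cyclic dinucleotide, had 355 CPM in MAMs and 68.7 in RAMs (log2 fold change 2.37, edgeR adjusted p = 3.4e-11). Rhbdf2, which encodes iRhom2, a STING trafficking factor, had 146 and 56.7 CPM (1.36, edgeR adjusted p = 1.2e-08). Enpp1, whose product degrades the dinucleotide outside the cell, had 40.6 and 172 CPM (-2.08, edgeR adjusted p = 9.2e-06). Xrcc5, which encodes the DNA repair protein Ku80, was the lowest, at 2.00 and 65.2 CPM (-5.02, edgeR adjusted p = 1.2e-12, and -3.84 with limma on log2(FPKM + 1)). Hmgb2, which encodes a DNA binding chromatin protein, was at 4.91 and 13.2 CPM (-1.43, edgeR adjusted p = 6.5e-05).

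Genes that remove or mark self nucleic acid were DE in 10 of 18 tested, 7 higher and 3 lower, 55.6% against 30.2% of all genes tested, with a median log2 fold change of 0.24. Trex1, which degrades cytosolic DNA, had 95.1 CPM in MAMs and 25.5 in RAMs (1.90, edgeR adjusted p = 1.1e-09). Samhd1, which removes nucleotides, had 1829 and 609.9 CPM (1.58, edgeR adjusted p = 9.6e-10). Adar, which edits double-stranded RNA so that MDA5 does not bind it, had 157 and 52.3 CPM (1.59, edgeR adjusted p = 2.1e-09).

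The largest differences among these clearance genes in the edgeR fit lay in a nuclease and in deaminases. Dnase1l3, which encodes a secreted DNase, had 9.11 CPM in MAMs and 0.103 in RAMs (6.40, edgeR adjusted p = 7.8e-08), from 2 to 16 reads in a RAM library. Its log2 fold change was 1.73 with limma on log2(FPKM + 1), 4.21 on log2(FPKM + 0.1) and 7.16 without RAM replicate 1. The cytidine deaminase gene Apobec1 was at 694 and 130 CPM (2.42, edgeR adjusted p = 3.3e-12) and Apobec3 at 99.3 and 21.5 (2.21, edgeR adjusted p = 4.9e-10). The second adenosine deaminase gene, Adarb1, was at 10.9 and 189 CPM (-4.12, edgeR adjusted p = 7.4e-06), opposite to Adar. The RNase H2 subunit genes Rnaseh2b (-1.20, edgeR adjusted p = 1.5e-04) and Rnaseh2a (-1.04, edgeR adjusted p = 0.00342, with overlapping groups) were lower as well.

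**Figure D4:**
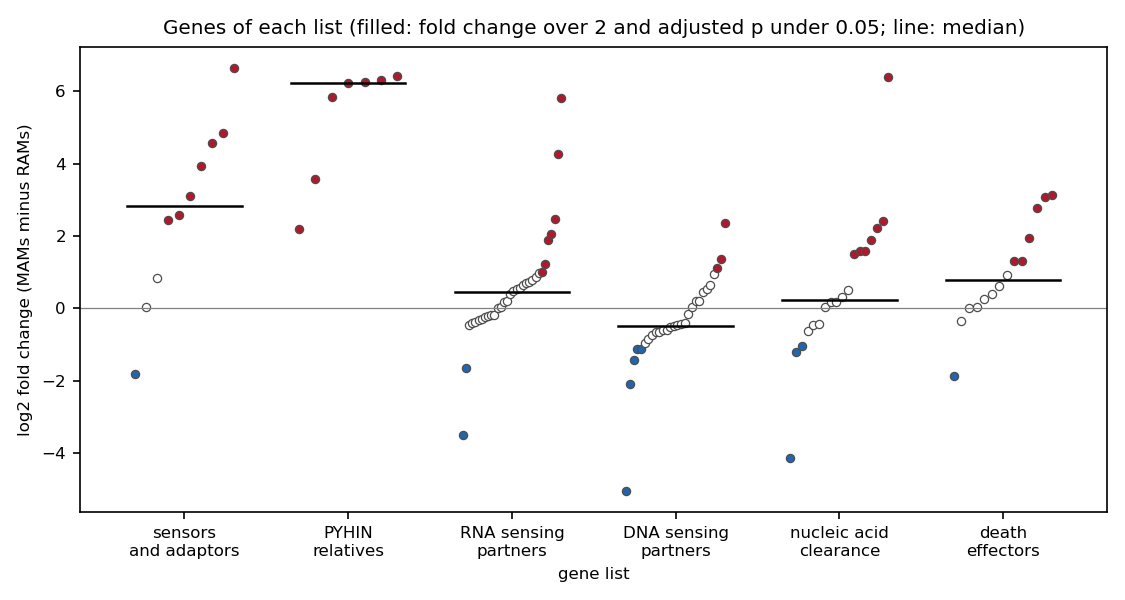
Log2 fold change of MAMs against RAMs (y axis) for each tested gene of 6 lists (x axis), with filled points for DE genes (red higher, blue lower), open points for the others and a black line at the list's median. The sensors and the PYHIN relatives have medians of 2.83 and 6.23, and the other 4 lists between -0.48 and 0.78.

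Levels of different genes were compared per length with the authors' FPKM, which scale fragments by transcript length and library depth. In MAMs the order was Zbp1 at 372 ± 72.9, Ifi204 at 269 ± 18.2, Ifi203 at 120.1 ± 23.8, Dhx58 at 74.5, Ddx58 at 72.5, Ifih1 at 72.0, Ifi205 at 61.2, Aim2 at 30.8, Tmem173 at 28.6 and Mavs at 14.5 FPKM (mean ± SD, n = 5). The libraries of neighbours overlapped from Ifi203 to Ifi205 and between Aim2 and Tmem173. In RAMs the order was Mavs at 51.5 FPKM, Aim2 at 33.2, Tmem173 at 16.0, Zbp1 at 14.3, Ddx58 at 13.1, Ifih1 at 12.1, Ifi204 at 9.10, Ifi203 at 7.98, Dhx58 at 7.60 and Ifi205 at 0.586. There Mavs, Aim2 and Tmem173 did not overlap their neighbours above or below except that Tmem173 overlapped Zbp1, and every further pair overlapped down to Dhx58. Mavs was thus first in RAMs and last in MAMs. CPM per kilobase of union exons was an alternative added after the data were seen. With it Mavs held both places, though its lowest RAM library (35.2) lay under the highest RAM library of Aim2 (35.5). Ifi204 came before Zbp1 in MAMs on that scale, and Zbp1 fell to rank 9 in RAMs.

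The 10 genes summed to 1115 ± 144 FPKM in MAMs and 165 ± 11.5 FPKM in RAMs (SD, n = 5 each), 6.74-fold, and the 8 sensors without the adaptors were 10.9-fold higher in MAMs. Of that sum, Mavs took 1.31% ± 0.121 in MAMs and 31.2% ± 3.81 in RAMs. Zbp1 took 33.1% ± 2.17 and 8.58% ± 1.62, and Ifi203, Ifi204 and Ifi205 together took 40.5% ± 1.43 and 10.7% ± 1.29. Aim2 took 2.78% ± 0.264 and 20.1% ± 1.65. On the FPKM scale the 3 RNA sensors held nearly the same share in both groups, 19.7% ± 0.822 and 19.9% ± 1.91. These shares follow from the FPKM levels above, were not worked out on another scale and were not tested. They depend on the scale, since with CPM per kilobase of union exons Zbp1 stood at 102 in MAMs, under Ifi204 at 175.

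**Figure D5:**
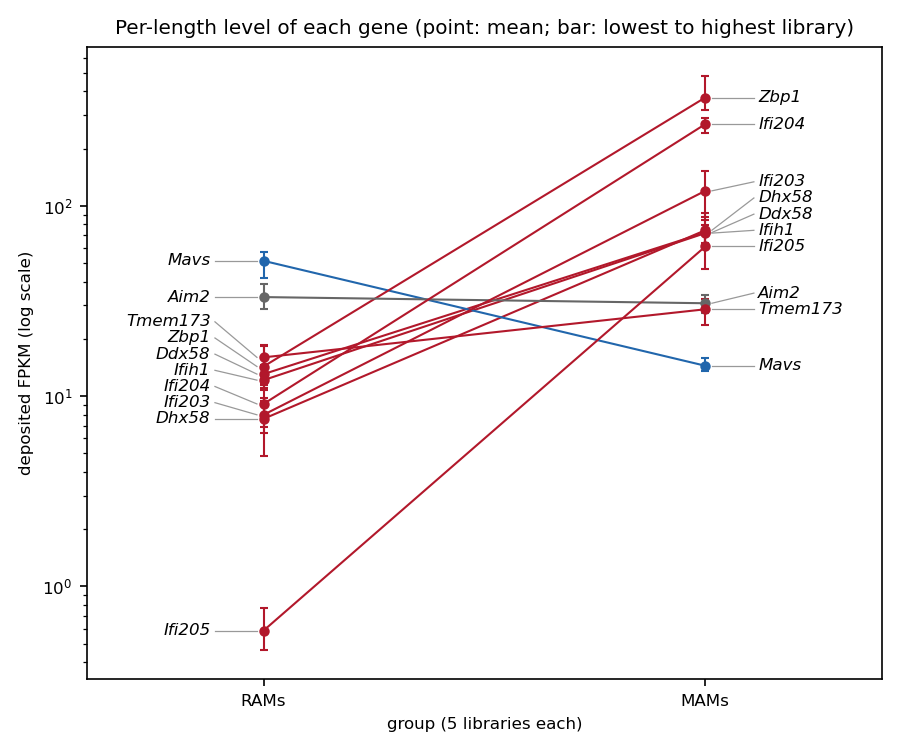
Mean deposited FPKM of each gene (y axis, log scale) in RAMs (left) and MAMs (right), with bars from the lowest to the highest of 5 libraries and grey lines leading to the names. Genes with a mean over 1.5 times higher in MAMs are red, Mavs, lower in MAMs, is blue and Aim2 is grey, and Mavs goes from the first place in RAMs to the last in MAMs.

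Within MAMs several of the genes had the same highest or lowest library. MAM replicate 1 was the highest MAM library for 7 of the 10 genes, Ddx58, Ifih1, Mavs, Zbp1, Aim2, Ifi203 and Ifi204, and MAM replicate 4 was the lowest for 4. How often these libraries were the extremes over all genes tested was not counted, so the counts are not a trait of the sensors. In RAMs replicate 4 was the highest for 4 genes and no library for more. The coefficient of variation of the 10 genes ran from 6.34% to 19.9% in MAMs and from 5.61% to 23.6% in RAMs, with Ifi205 at the top in MAMs and Ifih1 at the bottom in RAMs. No group of 5 libraries held a sample apart from the others by Dixon's test, in 34 such groups of genes and ratios.

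The nearest gene by pattern over the 10 libraries was also found for the other 8 genes. It was Rbpj for Dhx58 (distance 0.547), Runx1 for Mavs (0.330), Clec4d for Zbp1 (0.486), Hspa4 for Aim2 (0.212), Srgn for Ifi203 (0.362), Gbp9 for Ifi204 (0.528), Oas3 for Ifi205 (0.586) and Ankib1 for Tmem173 (0.287). The distance is Euclidean between log2 CPM values centred on each gene's mean. It is set mainly by the difference between the groups, which the 10 libraries share.

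Markers of other cells were read beside these results. The plasmacytoid dendritic cell list, a type rich in nucleic acid sensing, summed to 125 to 168 CPM in MAMs, against 35.7 to 48.8 in RAMs. Of its 5 genes 1 was DE and higher and 1 DE and lower. Most of the sum was Tcf4, at 147 CPM in MAMs and 31.7 in RAMs. Ccr9 was at 4.12 and 9.96 CPM and Cox6a2 at 1.45 and 0.468. The defining markers Siglech and Klk1 were under 1 CPM in every library. The neutrophil list summed to 4.03 to 17.9 CPM in MAMs, against 1.41 to 2.86 in RAMs, with 2 of 6 genes DE and higher and Mpo, Camp and Retnlg under 1 CPM in all libraries. In RAMs the T cell list summed to 254 to 312 CPM against 12.6 to 36.8 in MAMs, mostly Cd2 at 282 against 21.1, with Cd3g under 1 CPM throughout. The epithelial or tumour cell list summed to 589 to 702 CPM in RAMs and 9.84 to 23.6 in MAMs, with 3 of 5 genes DE and lower in MAMs. These were Krt19 (436 CPM in RAMs), Cdh1 (131) and Epcam (76.8). Krt8 and Krt18 had higher means in MAMs, at 1.48 against 0.0453 CPM and 1.81 against 0.119. Only 4 of the 5 listed genes passed the filter, so Krt8 and Krt18 were not both tested, and neither was called DE. Genes of proliferation summed to 132 to 179 CPM in MAMs, against 798 to 1046 in RAMs, with 4 of 4 DE and lower. The B cell, NK cell and erythroid lists summed to under 25 CPM in every library, the conventional dendritic cell list to 3.31 to 8.30 CPM in MAMs, against 17.0 to 25.4 in RAMs, and the lung epithelium list to 1.59 to 13.8 and 25.1 to 45.4. The part of other cells in the sensor levels was not tested.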

How the data were processed

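RNA from 5 MAM and 5 RAM samples was sequenced in paired reads from libraries of the Ovation RNA-Seq System V2. Per the study's methods and the submitters' processing notes, the authors aligned reads to GRCm38 (mm10) with TopHat2 2.0.13, counted uniquely mapped reads per RefGene gene model with HTSeq 0.6.1 and made FPKM with Cufflinks 2.2.1. The deposited counts are whole numbers without normalization, and the deposited FPKM are scaled by the authors for transcript length and depth. The strand setting of the counting is not given in the sources used here.

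The 11571 genes with counts whose mean FPKM reached 1 in MAMs or RAMs were fitted with edgeR 4.0.16 (robust quasi-likelihood, TMM factors 0.897 to 0.943 in MAMs and 1.07 to 1.10 in RAMs, R 4.3.3), with Benjamini-Hochberg adjustment over all of them and no covariate. Lines for unassigned reads were left out. Ratios within a library used counts plus 0.5 and an exact two-sided permutation test (scipy 1.17.1), adjusted over 7 pairs. Alternatives were DESeq2 1.42.0, other scalings and filters, limma 3.58.1 on log2(FPKM + 1) and log2(FPKM + 0.1), glmTreat, a replicate block and leaving out each library. The fits were checked on simulated counts. A count of 0 allows up to 3 counts, for counting error only, since the reads carry no molecular identifiers. Positions are from GENCODE M21 on GRCm38. No 2 libraries held identical values.

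The members and lists were chosen with earlier results of these data known. Named were the 10 sensors, the 3 DE genes of largest change in each direction of each partner list, core partners, the nearest gene by pattern, and the sorting genes. Ifi207, Mndal, Cd2, Tcf4, Ccr9, Cox6a2, C1qb and the library extremes were named after their values were seen. So were Eif2ak2, Tank, Zc3hav1, Azi2, Atg12, Sike1, Cyld and Pcbp2.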

Additional observations from a re-analysis of the deposited data

How the results depend on the processing

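The sensor genes called were 8 under every alternative. Of 190 values of single sensor genes, 185 kept their direction and their side of the threshold. Tmem173, which had passed on its adjusted p alone, did not pass against a null of 2-fold. Aim2 turned to -0.10 with limma on log2(FPKM + 0.1) and on log2(FPKM + 1), to -0.12 under upper-quartile scaling, and to -0.00885 without RAM replicate 3, and it passed in none of these (range -0.00885 to 0.0986 with each library left out). The replicate numbers did not pair the samples (correlation of deviations -0.0366 to 0.0294 over 5 pairs), and with the replicate number as a block 8 sensor genes and 3511 genes of all tested were called. Of all genes tested 3498 were called, 2499 with glmTreat and 4702 without a filter, and 3368 to 3500 with each library left out. The DNA sensing partners called were 4 with glmTreat against 8. The interferon genes called were 0 with glmTreat and 2 without a filter, against 1. The ratio of Ifih1 to Ddx58 passed without MAM replicate 5, and its log2 difference was 0.0859 to 0.16 with each library left out. Of the 741 values of named partner genes, 28 fell short of the threshold and 1 newly passed it. The cause of these changes was not tested, except that glmTreat sets a stricter null and the missing filter adds genes. Depth limits Ifi205 in RAMs, which rests on under 100 reads a library. It also limits the interferon genes other than Ifnk, and for the similar Ifna genes so does the loss of reads that map to several genes.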
